A study of Rattus norvegicus and Mus musculus with 24 samples.

Results

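A set of 9 genes of the receptor-mediated endocytosis apparatus of the kidney proximal tubule was followed in Ctns knockout and wild-type mice and rats. They were taken by symbol: LRP2, CUBN, AMN, FCGRT, LRPAP1, DAB2, OCRL, CLCN5 and EHD1. All 9 were found among the 17376 symbols of the mouse table. Among the 14931 symbols of the rat 8 were found, and LRP2 was not analysed here in the rat. All 9 in the mouse were tested, and all 8 in the rat passed the filter on low counts.

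Ctns encodes the transporter that carries cystine out of lysosomes, and its loss lets cystine build up there. The libraries came from 4 KO and 4 WT mice of a C57BL/6 line, and from 8 KO and 8 WT rats of a Sprague-Dawley line, 1 library per animal. KO animals lacked Ctns, and WT animals were control littermates matched for age and sex. The WT littermates carried no other allele or treatment that the sources used here mention, and the study's reporting notes give the mice as female. The age of the sequenced animals and the sex of the sequenced rats were not found in these sources. Tissue is labelled kidney cortex and cell type proximal tubule cells, and the extraction notes speak of microdissected proximal tubules. The rats carry the numbers 17 to 24 and 25 to 32, with 4 KO and 4 WT animals in each range. What separates the ranges is not stated in the labels, and they are treated here only as ranges of animal number.

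Proximal tubule cells take back filtered proteins at their apical membrane. Megalin (LRP2) and cubilin (CUBN) bind albumin, vitamin carriers and many small proteins, and are taken in through clathrin-coated pits into endosomes, where ligand and receptor part at low pH. Ligands then go to lysosomes, while receptors return to the surface. Inherited defects of CLCN5 and OCRL cause Dent disease and Lowe syndrome, in which low molecular weight proteins are lost in the urine.

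Depth ranged from 19309449 to 44449859 reads on genes per mouse and from 24684097 to 40629873 per rat. CTNS, the targeted gene, stood at scaled values of 0.319 to 0.342 in KO and 0.824 to 1.03 in WT mice. In rats it ran from 16.8 to 22.2 TMM-normalized CPM in KO and from 19.2 to 27.8 in WT animals, so that its level does not check the rat labels. CPM are counts of a gene scaled to the total of its library, and TMM normalization, described below, adjusts that total. Markers of the proximal tubule were abundant in every library, with 17 of 18 listed markers measured in each species (PDZK1 was not analysed here in the mouse, nor SLC5A12 in the rat). Markers of other cells were present too. The thick limb gene UMOD reached a mean of 2287 TMM-normalized CPM in WT rats, and podocyte and endothelial markers summed to between 848 and 1284 CPM in WT rats. The libraries therefore held more than proximal tubule RNA, and in such bulk tissue fewer cells of a type and less RNA per cell cannot be told apart.

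In mouse kidney the 9 genes differed widely in abundance. Per length, as reads per kilobase of merged exon scaled to the reads of the library (RPKM), LRP2 was the most abundant in WT mice, at 257 ± 17.7 (SD, n = 4). LRP2 lies on the minus strand at chr2:69424340-69586065 of mm10. LRPAP1, the endoplasmic reticulum chaperone (RAP) that keeps megalin from binding ligands early, followed at 148 ± 9.104. FCGRT, the heavy chain of the neonatal Fc receptor that recycles albumin and IgG, stood at 136 ± 34.3. LRPAP1 lies at chr5:35091501-35105766 (minus strand) and FCGRT at chr7:45092990-45103851 (minus strand). Single libraries of LRPAP1 and FCGRT overlapped, so their order is not set by these data.

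DAB2, the clathrin adaptor that binds the megalin tail, stood at 93.3 ± 12.7 on the same scale in WT mice, CUBN at 72.6 ± 8.76 and AMN at 56.9 ± 6.76. AMN encodes amnionless, the membrane anchor without which cubilin, which has no transmembrane stretch, does not reach the surface. Neighbours in this order overlapped between libraries (FCGRT and DAB2, DAB2 and CUBN, CUBN and AMN). DAB2 lies at chr15:6299788-6440712, CUBN at chr2:13276338-13491813 and AMN at chr12:111271095-111276426. EHD1, an ATPase of recycling endosomes, reached 36.8 ± 6.19 and lies at chr19:6276725-6300096. The endosomal chloride/proton exchanger CLCN5 reached 13.1 ± 1.14 and the inositol polyphosphate 5-phosphatase OCRL 3.33 ± 0.13996. Both are X-linked, at chrX:7153810-7319358 and chrX:47912387-47965868, and with LRP2 and EHD1 they are the genes whose WT values overlapped with those of no other gene of the set.

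The receptors were compared first between KO and WT mice. Values in mice are reads scaled so that the 75th percentile of each library is 1, and differences were tested with limma on log2(value + 1), a scale that understates the change of low genes. LRP2 was 69.4, 77.8, 80.2 and 88.2 in the 4 KO mice and 82.2, 90.96, 93.8 and 98.3 in the 4 WT mice. The 3 lowest values were all from KO mice, but the highest KO value lay above the lowest WT value. This gave a log2 difference of -0.21 (SE 0.09, adjusted p = 0.277), which did not pass the threshold of 0.05.

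CUBN was 18.1, 19.2, 21.9 and 22.95 in KO and 19.995, 21.4, 24.3 and 26.5 in WT mice, with a log2 difference of -0.16 (SE 0.11, adjusted p = 0.537). KO and WT values interleaved. The 2 receptors kept nearly the same proportion to each other, with 3.85 ± 0.162 LRP2 reads per CUBN read in KO and 3.98 ± 0.241 in WT mice (SD, n = 4 each). By pattern over the 8 mice, LRP2 was the nearest of 9512 symbols to CUBN, at a root mean square difference of 0.0694 in log2 CPM centred on each gene's mean. CUBN in turn ranked 4 for LRP2, behind HYOU1, ZSWIM9 and PDE4B. These distances are a description over 8 libraries that share their depth scaling.

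AMN differed in the opposite direction from CUBN, within the spread. It was 2.17, 2.46, 2.62 and 2.71 in KO and 1.89, 2.18, 2.29 and 2.56 in WT mice, with a log2 difference of 0.11 (SE 0.07, adjusted p = 0.504). Its distance ranked 5088 of 9512 from CUBN. FCGRT had the widest spread among WT mice, at 4.57, 5.45, 6.24 and 8.07, and the 4 KO values, 4.67, 4.803, 5.19 and 5.37, fell inside it (-0.22, SE 0.14, adjusted p = 0.507).

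Among the partners of the receptors, LRPAP1 came closest to the threshold. It was 10.8, 11.1, 11.1 and 11.5 in KO and 11.9, 13.03, 13.3 and 13.6 in WT mice. On this scaling all KO values lay below all WT values, with a log2 difference of -0.20 (SE 0.05, adjusted p = 0.0595). Scaled by library totals the groups overlapped, with KO mouse 8 at 570 CPM and WT mouse 7 at 556 CPM. With edgeR on reads recovered from the scaled values the adjusted p was 0.0516, and with DESeq2 it was 0.00236. Without WT mouse 7, the lowest of the WT group, limma gave an adjusted p of 0.0297.

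CLCN5 and OCRL lay on the other side. CLCN5 was 3.59, 3.67, 3.77 and 4.12 in KO and 2.78, 3.16, 3.31 and 3.499 in WT mice, so that every KO value was above every WT value, with a log2 difference of 0.20 (SE 0.06, adjusted p = 0.131). OCRL was 0.712, 0.713, 0.762 and 0.802 in KO and 0.638, 0.643, 0.703 and 0.704 in WT mice. The OCRL groups also did not overlap, by a small margin (0.06, SE 0.02, adjusted p = 0.209). DAB2 was 12.3, 12.3, 12.8 and 13.9 in KO and 12.5, 14.02, 14.2 and 17.6 in WT mice, and EHD1 2.26, 2.32, 2.47 and 2.62 and 2.499, 2.57, 3.04 and 3.46. Both overlapped between the groups (DAB2 -0.16, adjusted p = 0.458; EHD1 -0.18, adjusted p = 0.309).

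**Figure D1:**
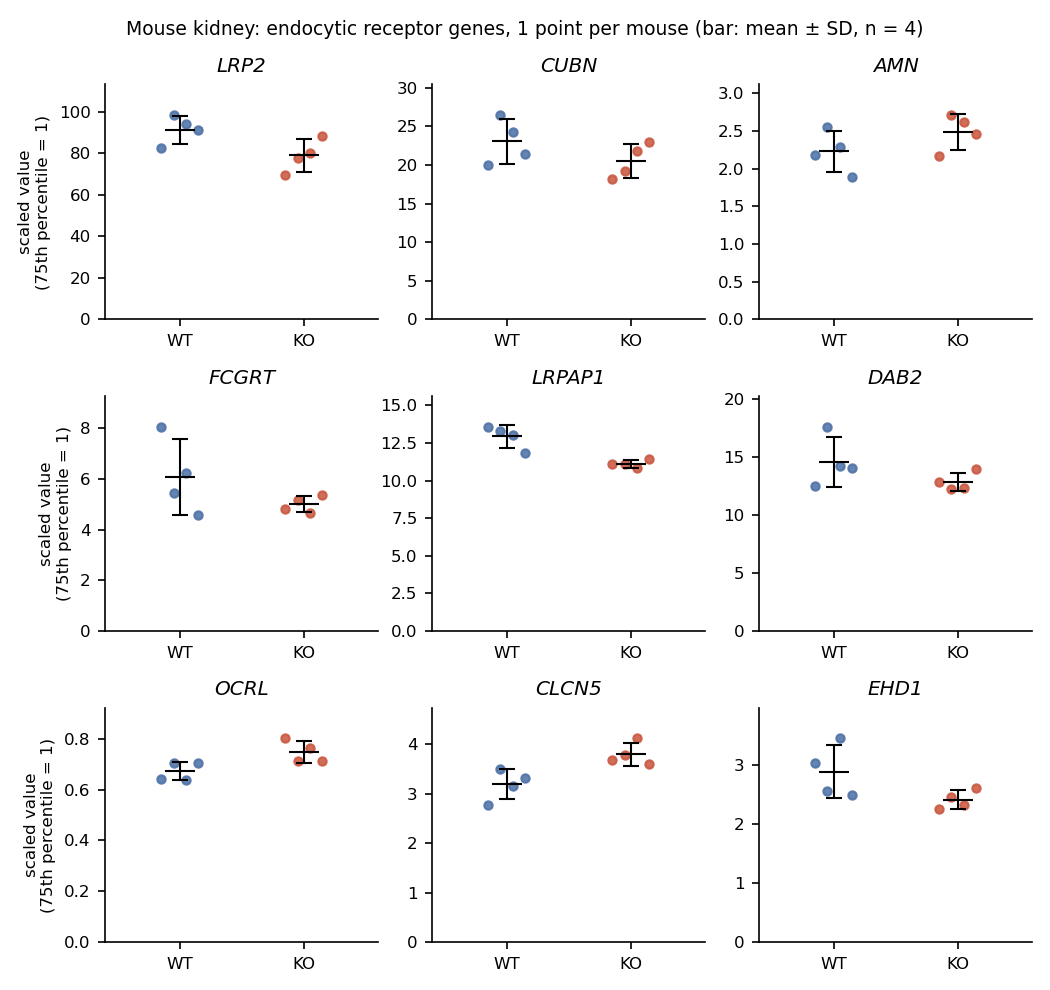
Scaled value of each of the 9 genes in each mouse, with the 75th percentile of a library at 1. Points are mice and bars the mean ± SD of 4. On this scaling LRPAP1 is lower in all KO mice than in any WT mouse, CLCN5 and OCRL are higher, and the other 6 genes overlap.

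Counted over the set, limma called 0 of 9 genes in the mouse, against 4.32% of all 17376 symbols called in either direction. At an unadjusted p under 0.05 there were 3 (LRPAP1, CLCN5 and OCRL), beside 18.4% of all symbols. edgeR on recovered reads called 0 and DESeq2 called 1, where DESeq2 called 11.3% of the symbols it tested. The log2 difference was below 0 for 6 of 9 genes and for 42.3% of all symbols, and the median was -0.16 for the set and 0.00 for all symbols. In the scaled values non-overlap ran downwards for 1 gene and upwards for 2, where 3.92% and 7.66% of all symbols did so. The 1 downwards, LRPAP1, overlapped on library totals.

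In the rat, 4 of 8 genes were lower in KO animals over all 16 rats by edgeR (quasi-likelihood test, TMM normalization), and none was higher. Of all 11584 symbols tested, 12.3% were called lower. The 4 were FCGRT, DAB2, EHD1 and LRPAP1. Rat values are given as CPM after TMM normalization, which sets the bulk of genes level between libraries. All 8 log2 differences were below 0, as were those of 53.5% of all symbols, with a median of -0.35 against -0.02.

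FCGRT fell furthest of the 4. It ranged from 67.1 to 148 CPM in the 8 KO rats (median 102) and from 146 to 207 in the 8 WT rats (median 169), with a log2 difference of -0.66 (SE 0.14, adjusted p = 0.00294). DAB2 ranged from 411 to 744 CPM in KO (median 612) and from 679.9 to 1164 in WT rats (median 828), with a log2 difference of -0.52 (SE 0.12, adjusted p = 0.00515). In both genes the upper KO values reached into the WT range.

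EHD1 ranged from 224 to 303 CPM in KO (median 274) and from 288 to 407 in WT rats (median 354), with a log2 difference of -0.36 (SE 0.09, adjusted p = 0.00517). LRPAP1 ranged from 738 to 959 CPM in KO (median 865) and from 953 to 1179.9 in WT rats (median 1065), with a log2 difference of -0.31 (SE 0.07, adjusted p = 0.00259). The LRPAP1 groups met at their edge, where the highest KO rat stood just above the lowest WT rat. No gene of the 8 had all KO rats below all WT rats, which held for 1.95% of all symbols.

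The remaining 4 did not pass over all rats in edgeR. CLCN5 gave a log2 difference of -0.57 (SE 0.23, adjusted p = 0.0747), OCRL -0.13 (SE 0.06, adjusted p = 0.0804), CUBN -0.33 (SE 0.24, adjusted p = 0.323) and AMN -0.09 (SE 0.11, adjusted p = 0.578). CUBN had a wide spread within each genotype, from 397 to 899.6 CPM in KO and from 477 to 1209 in WT rats. With the number range as a covariate, CUBN (-0.34, SE 0.08, adjusted p = 0.00302) and CLCN5 (-0.63, SE 0.21, adjusted p = 0.0247) passed as well, which made 6 of 8 lower beside 19.4% of all symbols. CLCN5 also passed without that covariate in DESeq2 (-0.57, adjusted p = 0.0449) and limma-voom (-0.64, adjusted p = 0.047), which each called 5 of 8 lower beside 14.5% and 12.9% of all symbols. For AMN the sign depended on the scaling, with -0.09 by TMM and 0.01 when libraries were scaled by their totals.

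**Figure D2:**
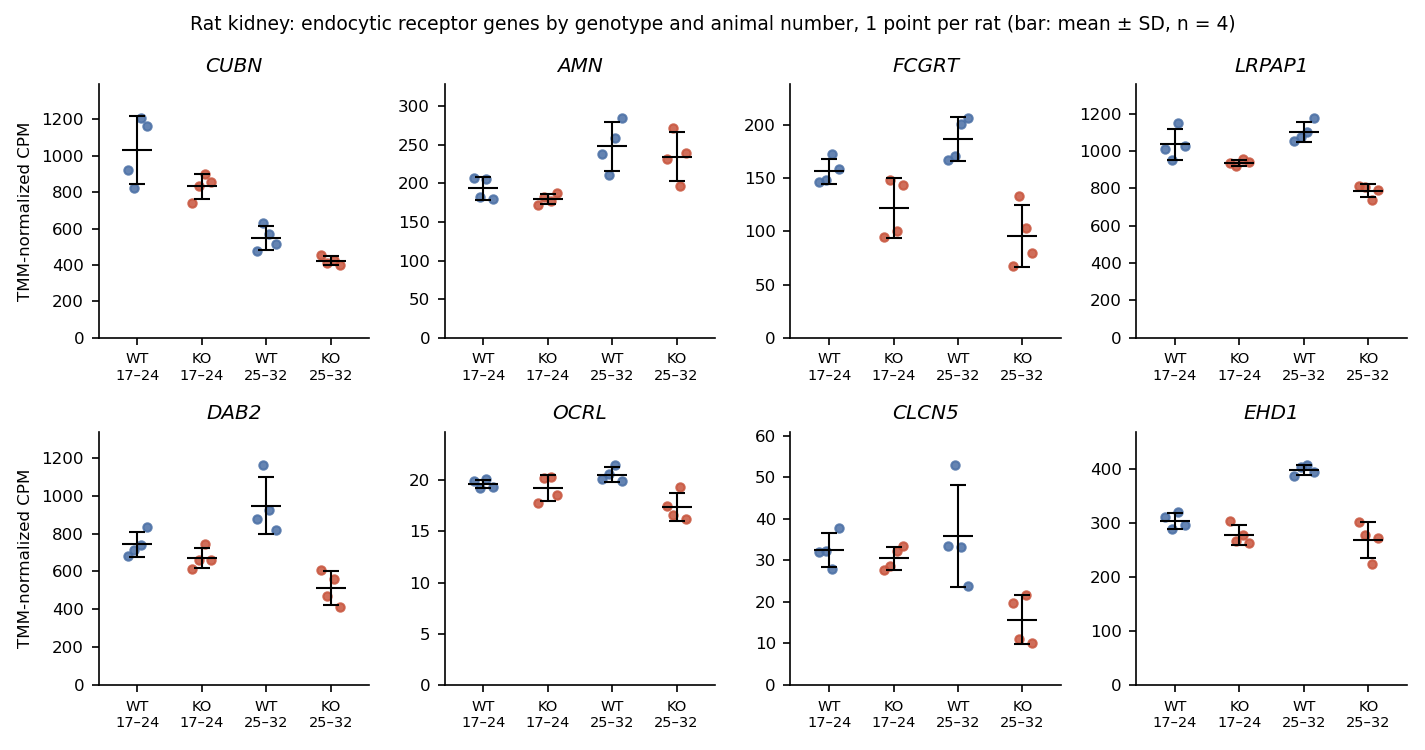
TMM-normalized CPM of 8 genes in each rat, by genotype and animal number. Points are rats and bars the mean ± SD of 4. In rats 25 to 32 every KO point lies below every WT point in all panels but AMN, whereas in rats 17 to 24 the genotypes overlap.

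Each number range was then tested alone. In rats 17 to 24, 0 of 8 genes passed with edgeR, DESeq2 or limma-voom, and 2 (CUBN and FCGRT) had an unadjusted p under 0.05 in edgeR, near the 21.2% of all symbols that did. In that comparison 7.26% of all symbols were called in either direction. All 8 differences were below 0, as were those of 50.7% of all symbols, and their median was -0.13. In rats 25 to 32, 7 of 8 genes were called lower, where 22.1% of all symbols were. The 7 also had every KO rat below every WT rat, as had 19.9% of all symbols, and the median of the 8 was -0.53 against -0.01.

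CLCN5 showed the widest contrast between the ranges. Among rats 25 to 32 it was 10.1, 11.1, 19.8 and 21.7 CPM in KO and 23.9, 33.3, 33.5 and 53.02 in WT animals, with a log2 difference of -1.19 (SE 0.29, adjusted p = 0.00743). The lower range gave 27.7, 28.6, 32.3 and 33.5 in KO and 27.9, 32.01, 32.4 and 37.7 in WT animals, with a log2 difference of -0.08 (SE 0.09, adjusted p = 0.692). KO rats 28 and 32 held the 2 lowest values of all 16, and WT rat 27 the highest. The difference between the ranges, as the interaction of genotype and range, was -1.10 (SE 0.33, adjusted p = 0.037). It lost its call in 10 of 16 fits that each left out 1 rat, at between -1.30 and -0.85 and an adjusted p of up to 0.0878 (without WT rat 27), and with no filter (adjusted p = 0.0519).

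DAB2 in rats 25 to 32 was 411, 472, 559 and 608 CPM in KO and 819.7, 879.6, 925 and 1164 in WT animals, with a log2 difference of -0.88 (SE 0.14, adjusted p = 0.000677). Rats 17 to 24 had 615, 659.5, 661 and 744 in KO and 679.9, 716, 741 and 837 in WT animals (-0.14, SE 0.08, adjusted p = 0.328). The gap between genotypes was thus clear of the spread in the higher range and within it in the lower range, and the interaction was -0.74 (SE 0.17, adjusted p = 0.00942).

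EHD1 in rats 25 to 32 was 224, 271, 277 and 302 CPM in KO and 387, 394, 403 and 407 in WT animals, with a log2 difference of -0.57 (SE 0.09, adjusted p = 0.00046). The WT rats were tightly grouped. Among rats 17 to 24 it was 263, 266, 278 and 303 in KO and 288, 295, 311 and 321 in WT animals (-0.12, adjusted p = 0.272), and the interaction was -0.44 (SE 0.11, adjusted p = 0.0124). KO rats of both ranges stood at similar means, 277 and 269 CPM, while the WT means were 304 and 398.

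LRPAP1 in rats 25 to 32 was 738, 791, 810.3 and 811 CPM in KO and 1052, 1077, 1104 and 1179.9 in WT animals, with a log2 difference of -0.49 (SE 0.06, adjusted p = 0.000202). Values for rats 17 to 24 were 919, 937, 939.8 and 959 in KO and 953, 1011, 1029.6 and 1153 in WT animals (-0.14, adjusted p = 0.246). Its KO means, unlike those of EHD1, moved between the ranges, and the interaction was -0.35 (SE 0.09, adjusted p = 0.0164). Over the 8 genes, 4 interactions were called and all were below 0, beside 7.64% of all symbols.

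FCGRT in rats 25 to 32 was 67.1, 79.9, 103 and 133 CPM in KO and 167, 170.4, 201 and 207 in WT animals, with a log2 difference of -0.96 (SE 0.18, adjusted p = 0.00177). FCGRT in rats 17 to 24 was 94.5, 99.8, 143 and 148 in KO and 146, 148, 158 and 172 in WT animals (-0.35, SE 0.15, adjusted p = 0.234). KO rats 18 and 22 were lowest, KO rat 24 lay just below the WT range and KO rat 20 within it. The interaction of -0.60 (SE 0.26, adjusted p = 0.12) did not pass.

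CUBN differed between genotypes in the same direction in both ranges. The higher range stood at 397, 409.6, 428 and 455 CPM in KO and 477, 513, 571 and 632 in WT animals, with a log2 difference of -0.37 (SE 0.09, adjusted p = 0.00829). The lower range stood at 740.3, 831, 855 and 899.6 in KO and 824, 922, 1162 and 1209 in WT animals (-0.30, SE 0.12, adjusted p = 0.175). Without WT rat 19, the lowest of its group, the latter became -0.39 with an adjusted p of 0.0332. The interaction was -0.07 (SE 0.16, adjusted p = 0.784).

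OCRL changed least of the 7. Its values in rats 25 to 32 were 16.2, 16.6, 17.5 and 19.3 CPM in KO and 19.9, 20.1, 20.6 and 21.5 in WT animals, with a log2 difference of -0.24 (SE 0.08, adjusted p = 0.0383). The call was lost in 6 of 8 fits that each left out 1 rat, with an adjusted p of up to 0.0995 (without KO rat 28). AMN was 196, 232, 239 and 272 CPM in KO and 211, 238, 259 and 285 in WT rats of that range, with a log2 difference of -0.08 (SE 0.11, adjusted p = 0.58), and the groups overlapped.

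Scaling touched these calls. In rats 25 to 32 the median log2 difference over all symbols was -0.01 by TMM and 0.15 when libraries were scaled by their totals, a shift of 0.16. On library totals CUBN (-0.21, adjusted p = 0.102) and OCRL (-0.07, adjusted p = 0.534) were no longer called and AMN stood at 0.08. CLCN5, DAB2, EHD1, FCGRT and LRPAP1 were called lower, and the share of all symbols called on this scaling is not given here. The interaction of CLCN5 was then -0.96, with an adjusted p of 0.0577, and those of DAB2, EHD1 and LRPAP1 were called.

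**Figure D3:**
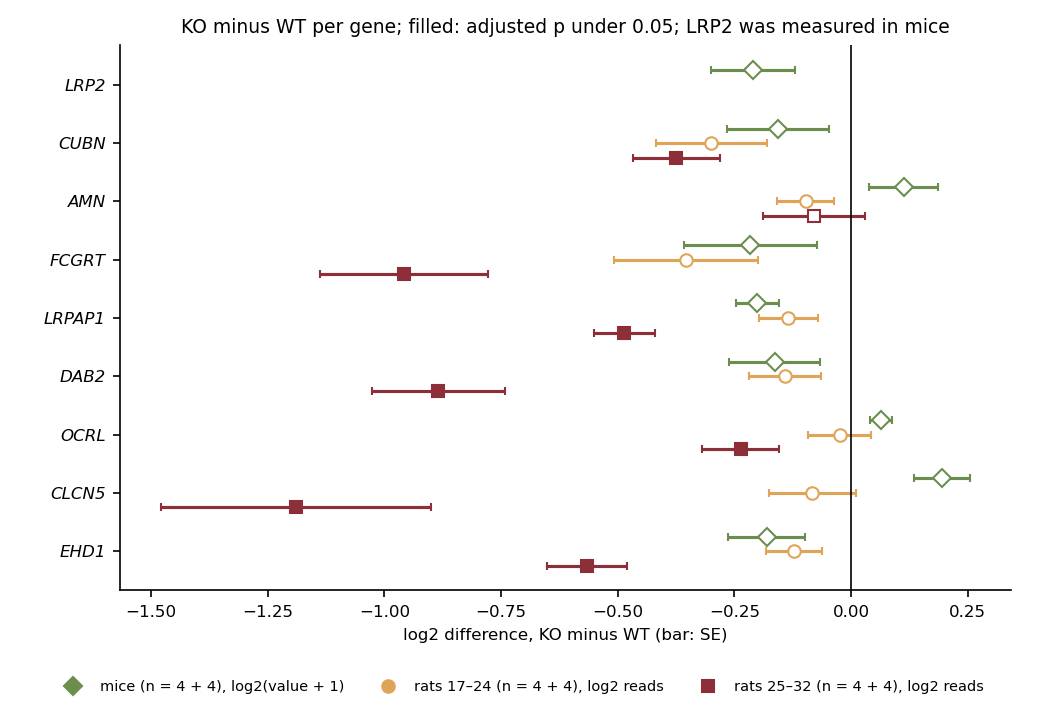
Log2 difference of KO from WT animals for each gene with its standard error, in mice (limma on the log2(value + 1) scale) and in both rat ranges (edgeR). Filled marks passed an adjusted p of 0.05. The 7 filled marks all belong to rats 25 to 32, from -1.19 for CLCN5 to -0.24 for OCRL.

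The ranges also differed among WT rats, which carry no Ctns deletion. Of the 8 genes 4 were called between WT rats 25 to 32 and WT rats 17 to 24, beside 21.1% of all symbols. CUBN was lower in the higher range, with a log2 difference of -0.91 (SE 0.11, adjusted p = 2.49e-05) and no overlap. Its mean was 548 ± 67.9 CPM in WT rats 25 to 32 and 1029 ± 186 in WT rats 17 to 24 (SD, n = 4 each). Within the ranges KO and WT rats differed by -0.30 and -0.37, and whether the gap between ranges was wider was not tested.

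AMN went the other way, with a log2 difference of 0.36 (SE 0.10, adjusted p = 0.012) and WT means of 248 ± 31.6 CPM in the higher and 193 ± 15.002 in the lower range. The number of AMN reads per CUBN read was 0.192 ± 0.0354 in WT rats 17 to 24 and 0.460 ± 0.0944 in WT rats 25 to 32. In KO rats it was 0.217 ± 0.0142 and 0.558 ± 0.0921. The ranges did not overlap in this proportion in either genotype. In mice it was 0.122 ± 0.0142 in KO and 0.0971 ± 0.00875 in WT animals (SD, n = 4 each), and the groups overlapped.

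EHD1 (0.39, SE 0.08, adjusted p = 0.00139) and DAB2 (0.35, SE 0.12, adjusted p = 0.0454) were higher in WT rats 25 to 32. The DAB2 call was lost in 10 of 16 fits that each left out 1 rat, at an adjusted p of up to 0.145 (without WT rat 27), and it also missed the threshold with DESeq2 size factors in edgeR or no filter (adjusted p = 0.0503 in both) and in limma-voom (adjusted p = 0.0527). AMN lost its call without WT rat 31 (adjusted p = 0.0563). On library totals, which moved the median of all symbols by -0.13 here, only CUBN (-1.03) and EHD1 (0.26) of the 4 were called. FCGRT, LRPAP1, OCRL and CLCN5 did not pass, at log2 differences of 0.26, 0.09, 0.07 and 0.15, and LRPAP1 (-0.04) and OCRL (-0.06) turned sign on library totals.

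**Figure D4:**
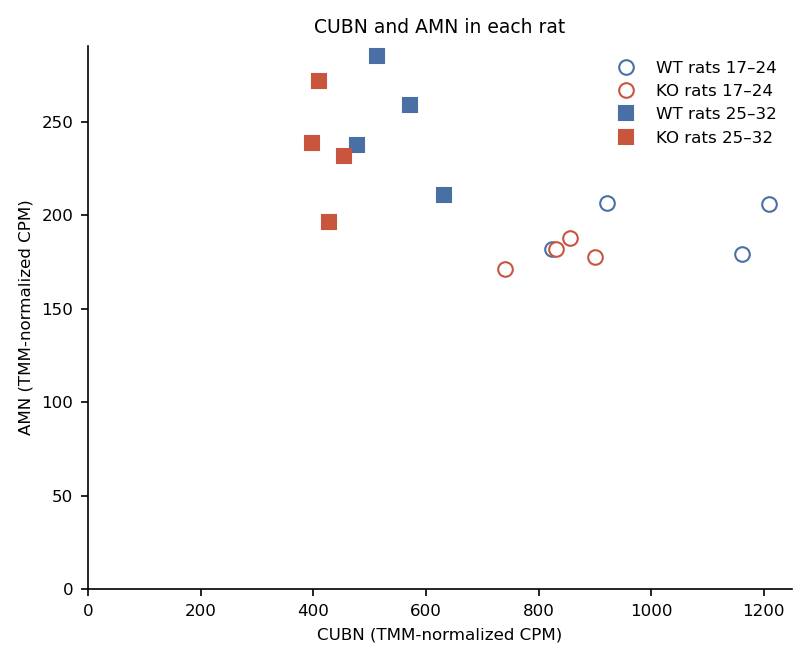
AMN against CUBN in each of the 16 rats, both in TMM-normalized CPM. Rats 17 to 24 (open circles) lie at 740.3 CPM or more for CUBN, and rats 25 to 32 (filled squares) at 632 CPM or less.

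By pattern over the 16 rats, the 5 symbols nearest to CUBN among 8065 were DPEP1, SORT1, PLBD1, SLC15A2 and CD55, at root mean square differences from 0.167 to 0.222 in centred log2 CPM. DPEP1 encodes a brush border dipeptidase, SLC15A2 a peptide transporter and SORT1 the sorting receptor sortilin. Among the other members LRPAP1 was nearest to CUBN, at rank 1804, and AMN was farthest, at rank 7217. Their distances were 0.453 and 0.695, where a gene without variation would lie at 0.520, the root mean square of CUBN. Rank 1804 is therefore little nearer than a flat gene. As in mice, this is a description over libraries, here libraries of both number ranges.

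Because CUBN and AMN, whose products form 1 receptor complex, parted between the rat ranges, the 250 bases upstream of their start sites are shown (RefSeq annotation of GRCr8, a later build than that of the rat reads). The Cubn window is chr17:81501695-81501944 on the minus strand and the Amn window chr6:136132317-136132566 on the plus strand, both written 5′ to 3′ on the strand of the gene. Capitals mark the GC box letters CCGCCC on either strand.
Cubn: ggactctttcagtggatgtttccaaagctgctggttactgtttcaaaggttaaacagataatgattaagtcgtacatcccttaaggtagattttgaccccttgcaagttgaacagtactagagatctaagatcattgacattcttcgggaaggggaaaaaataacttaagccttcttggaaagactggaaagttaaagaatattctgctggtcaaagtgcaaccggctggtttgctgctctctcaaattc
Amn: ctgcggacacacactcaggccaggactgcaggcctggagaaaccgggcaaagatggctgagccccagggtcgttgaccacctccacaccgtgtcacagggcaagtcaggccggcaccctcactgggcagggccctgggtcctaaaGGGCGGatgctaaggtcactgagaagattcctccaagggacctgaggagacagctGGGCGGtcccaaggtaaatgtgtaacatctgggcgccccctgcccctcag
The Cubn window holds no match and has a GC content of 40.0%, higher than that of 13.8% of 33469 promoter windows. The Amn window holds 2 matches at 62.8% GC, higher than that of 80.6% of windows. CCGCCC occurs in 30.5% of all windows. TATAAA (12.9% of windows), CACGTG (5.59%) and GTTAAT (6.45%), sought on both strands, occur in neither. Among the other members found, the Lrp2 window also holds 2 matches of CCGCCC, at 64.4% GC. Windows of Ehd1, Lrpap1 and Clcn5 hold it too, and those of Fcgrt and Dab2 do not. These matches describe letters and say nothing of binding.

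Other genes of the pathway were taken from lists. Of 17 tested endocytic adaptors and clathrin coat genes, 6 were lower and 1 higher in KO rats (all 16), with a list median of -0.11 against -0.02 over all symbols. Over all rats 12.3% of all symbols were lower and 15.2% higher, and the list counts over all rats below stand beside these shares. MYO6, the minus-end motor of endocytic vesicles, fell (log2 -0.50, SE 0.11, adjusted p = 0.00352). PICALM, a clathrin assembly protein, fell too (log2 -0.42, SE 0.11, adjusted p = 0.0103), as did AP2A2, a subunit of the AP-2 adaptor (log2 -0.33, SE 0.06, adjusted p = 0.00125). GIPC1, which links MYO6 to its cargo, rose (log2 0.34, SE 0.10, adjusted p = 0.0186). The mouse had 0 of 20 called by limma and 0 by edgeR on recovered reads.

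Of 21 early and recycling endosome genes, 3 were lower and 1 was higher in KO rats, with a median of -0.13, and neither count stands out from the shares of all symbols. VPS35 (log2 -0.25, SE 0.06, adjusted p = 0.00673) and SNX5 (log2 -0.20, SE 0.06, adjusted p = 0.0156), which retrieve receptors from endosomes, fell. RAB5B, a small GTPase of early endosomes, also fell (log2 -0.18, SE 0.06, adjusted p = 0.0312). EHD4, a paralog of EHD1, rose (log2 0.23, SE 0.06, adjusted p = 0.00626), while EHD1 fell. The counts in rats 25 to 32 were 9 lower and 2 higher, where 22.1% of all symbols were lower and 21.8% higher. In rats 17 to 24 there were 0 calls. In the mouse 1 of 24 was called, RAB4A, a GTPase of fast recycling, which was lower (log2 -0.06, SE 0.01, adjusted p = 0.0455). edgeR on recovered reads did not call RAB4A and called 1 other, EHD3, a paralog of EHD1, lower.

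Of 5 other genes of intracellular CLC exchangers (4 relatives of CLCN5, and OSTM1, the subunit of CLCN7), 2 were lower in KO rats. CLCN6 fell (log2 -0.71, SE 0.12, adjusted p = 0.000544), and within the ranges its log2 difference was -0.31 (adjusted p = 0.0347) in rats 17 to 24 and -1.13 (adjusted p = 3.83e-05) in rats 25 to 32. CLCN4, an endosomal exchanger, fell as well (log2 -0.58, SE 0.15, adjusted p = 0.00728). In the mouse 0 of 5 were called, by limma or by edgeR.

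Of 12 transcripts of megalin and cubilin ligands, 4 were higher and 1 was lower in KO rats, with a median of 0.31. LGALS3 (galectin-3), also a gene of macrophages, rose (log2 1.60, SE 0.28, adjusted p = 0.000561), and so did CST3, cystatin C (log2 0.56, SE 0.08, adjusted p = 0.000185). HPX, which binds haem, rose as well (log2 1.09, SE 0.25, adjusted p = 0.00375). Its level was low, at means of 1.41 CPM in KO and 0.665 in WT rats, and it was not called in rats 17 to 24. TCN2, the carrier of vitamin B12, fell (log2 -0.27, SE 0.09, adjusted p = 0.0321). In the mouse LGALS3 (log2 0.27, SE 0.04, adjusted p = 0.0191) and B2M, the light chain that pairs with FCGRT (log2 0.30, SE 0.06, adjusted p = 0.0451), rose. Limma called 0 lower there and edgeR on recovered reads 2. Within rats 17 to 24, 4 of 12 were higher in KO animals and 0 lower, beside 5.07% and 2.19% of all symbols. Within rats 25 to 32 it was 7 and 1 of 12, beside 21.8% and 22.1%. B2M was called higher in KO rats of each range, but not over all rats.

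Proximal tubule markers were lower in the same comparisons. In KO rats 14 of 17 were lower over all rats and 0 higher, among them the anion transporter SLC22A6 (log2 -0.75, SE 0.22, adjusted p = 0.0169), the bicarbonate transporter SLC4A4 (log2 -0.73, SE 0.23, adjusted p = 0.027) and the transcription factor HNF4A (log2 -0.69, SE 0.13, adjusted p = 0.00116). In rats 25 to 32, 15 of 17 were lower, where 22.1% of all symbols were. The median of the markers was -0.84, beyond the -0.53 of the 8 members. In rats 17 to 24, 3 of 17 were lower beside 2.19% of all symbols, with a median of -0.23. In the mouse 0 of 17 were called by limma and 1 by edgeR on recovered reads.

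Their summed level ran from 15865 to 19126 CPM in KO and from 29809 to 33418 in WT rats 25 to 32, and from 19803 to 20657 in KO and from 22851 to 25470.1 in WT rats 17 to 24. No marker of the list was at or near 0. Between the WT groups the sum was higher in rats 25 to 32, in which CUBN was lower. In KO mice it ran from 21671 to 23151 and in WT mice from 20963 to 29626, all in CPM.

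**Figure D5:**
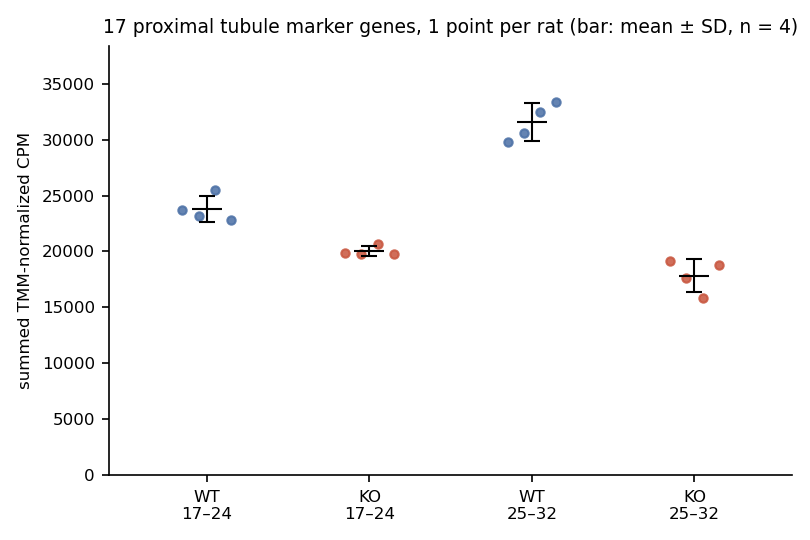
Summed TMM-normalized CPM of 17 proximal tubule marker genes in each rat, by genotype and animal number, with bars at the mean ± SD of 4. KO and WT rats 25 to 32 stand apart, from 15865 to 19126 and from 29809 to 33418, and KO and WT rats 17 to 24 lie closer.

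Macrophage, lymphocyte, fibroblast and tubular injury markers were higher in KO rats. Of the macrophage markers 8 of 9 were higher, of the lymphocyte markers 6 of 7, of the fibroblast markers 6 of 7 and of the tubular injury markers 9 of 9, and none was lower. Macrophage markers in rats 25 to 32 summed to 330.1 to 488 CPM in KO and 157 to 199 in WT animals, and injury markers to 4202 to 6203 and 484 to 569. In rats 17 to 24 the injury markers summed to 1338 to 1981 in KO and 557 to 704 in WT animals. Of the distal nephron markers 2 of 7 were higher, CALB1 and UMOD, and 0 of 9 podocyte and endothelial markers passed over all rats, with a median of -0.18. Within rats 25 to 32, 3 of these 9 (KDR, PODXL and EMCN) were lower. Of the 7 distal nephron markers there, UMOD, CALB1 and SCNN1G were higher and the collecting duct gene AQP3 lower. In that range 22.1% of all symbols were lower and 21.8% higher. In the mouse 5 of 10 macrophage, 4 of 10 fibroblast and 7 of 10 injury markers were higher by limma, beside 3.50% of all symbols. Of the members 0 of 9 were called there. The part of these shifts in the members' differences was not tested.

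Rat and mouse differences were set against each other in 1 model for the 8 genes measured in both, on values scaled alike. All 8 rat minus mouse differences were below 0, as were those of 47.7% of all symbols. By limma 0 of 8 passed, beside 3.17% of all symbols. At an unadjusted p under 0.05, which 18.4% of all symbols reached, there were 2, CLCN5 (-0.40, SE 0.12, adjusted p = 0.0736) and OCRL (-0.09, SE 0.03, adjusted p = 0.0701). Both passed with the rat number range as a covariate (adjusted p = 0.0298 and 0.0407), beside 7.89% of all symbols, and limma-voom on the reads of both species called 0. These are the same 2 genes whose KO mice lay above all WT mice, and those mouse values enter this contrast, so the match is not a separate observation. For the other 6 the difference between species ranged from -0.29 for DAB2 to -0.06 for LRPAP1.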

How the data were processed

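Kidney RNA of 24 animals was sequenced as stranded mRNA libraries with paired reads of 100 nucleotides. The submitters' processing notes name bcl2fastq 2.20, STAR 2.7.3, DESeq2 1.24.0 and R 3.6.1, and the builds mm10 and rn5; the counting tool and annotation are not given in the sources used here. Mouse values were deposited as a scaled signal, in which 0.5 is added both to the reads and to the library's 75th percentile before the first is divided by the second. Rat values were deposited as estimated counts that carry an added 1/6, which was subtracted before rounding to whole numbers. Both offsets were inferred from the values. Whole reads, within 0.01, came back for 99.0% of mouse and 97.7% of rat values, and for all members. Symbols follow the human style, so that several rodent genes can stand under 1 symbol.

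All symbols were tested in R 4.3.3: the mouse with limma 3.58.1 (trend, robust) on log2(value + 1), the rat with edgeR 4.0.16 (quasi-likelihood, robust, TMM, its low-count filter), and the species difference with limma on values scaled alike. Benjamini-Hochberg adjustment ran over all symbols, with a threshold of 0.05. Each library is 1 animal. Alternatives were pseudocounts of 0.1 and 0, filters, edgeR and DESeq2 1.42.0 on recovered reads, DESeq2 size factors, limma-voom, the number range as a covariate and leaving out each animal. Library totals in place of TMM, and edgeR on mouse reads without each mouse, were added after the data were seen.

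The members, gene lists and tests were chosen with earlier results of these data known. All members were named, and from each list up to 3 rises and 3 falls per species past the threshold with at least 1 CPM on average. The result of 1 list is not reported here. Nearest genes were sought among symbols with at least 10 CPM on average. The promoter pair and motifs were picked after the values were seen. Mouse lengths and positions came from GENCODE vM21 (mm10), promoters from RefSeq (GRCr8), where 8 members were found. No column of sample values was left unused. The scripts were tested on simulated data.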

Additional observations from a re-analysis of the deposited data

Results flagged for a closer look

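The response to Ctns deletion differed between the rat ranges for 4 of 8 genes by the interaction of genotype and number range (edgeR, adjusted over all symbols), with KO minus WT lower in rats 25 to 32. The difference was -1.10 for CLCN5, -0.74 for DAB2, -0.44 for EHD1 and -0.35 for LRPAP1, on the log2 scale. Of all symbols, 7.64% had an interaction called below 0. The CLCN5 call was lost in 10 of 16 fits that each left out 1 rat, with no filter and on library totals. In rats 25 to 32 all 4 KO animals lay below all 4 WT animals for each of the 4 genes, as for 19.9% of all symbols. Proximal tubule markers differed in the same way, with 12 of 17 interactions called and a median of -0.60, and their part in the members' differences was not tested. No animal stood far from the others of its group in the 66 sets of 4 or 8 values examined by Dixon's criterion, which flags about 1 in 20 groups by chance.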

How the results depend on the processing

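Counts of called genes held within 1.5 times of those reported under the alternatives run, with these exceptions. In the mouse, DESeq2 on recovered reads called 1 of 9 (LRPAP1) instead of 0, and leaving out each mouse gave 0 to 1 with limma (1 without WT mouse 7) and 0 to 1 with edgeR on recovered reads (CLCN5 without WT mouse 2, LRPAP1 without WT mouse 7). In rats 17 to 24 leaving out each rat gave 0 to 1 (CUBN without WT rat 19). The species difference was called for 2 genes with the number range as a covariate and for 0 to 2 when each animal was left out (OCRL and CLCN5 without KO rat 22, CLCN5 without KO rat 24, OCRL without WT mouse 2). Among WT rats, library totals in place of TMM called 2 genes instead of 4. The ranges without each animal were 4 to 6 over all rats, 6 to 7 in rats 25 to 32, 3 to 4 for the interaction and 3 to 4 for WT rats.

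Signs turned only for differences that had not passed. On library totals these were AMN over all rats (0.0103) and in rats 25 to 32 (0.0838), the interaction of CUBN (0.066), and LRPAP1 (-0.0394) and OCRL (-0.064) between WT ranges. Without single animals AMN ran from -0.1496 to 0.0006 in rats 25 to 32 and from -0.0577 to 0.0988 for the interaction. The interaction of CUBN ran from -0.1592 to 0.0203, OCRL in rats 17 to 24 from -0.0524 to 0.0066 and CLCN5 between WT ranges from -0.1031 to 0.292. The cause was not tested. Groups of 4 animals, and number ranges whose meaning is not stated, limit all rat contrasts by range. No paired analysis was run, because the labels do not say which KO and WT animals share a litter.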
